A study of Mus musculus with 6 samples.

Results

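The genes described here are those of the F-box proteins and of the SCF ubiquitin ligase, measured in the hypothalamus of male C57BL/6J DIO mice given GSK-J4 or vehicle. They were taken by name, as every gene of the Fbxl, Fbxw and Fbxo series together with Btrc, Skp2, Ccnf, Skp1a, Rbx1 and the cullins Cul1, Cul2, Cul3, Cul4a, Cul4b, Cul5 and Cul7, which gave 90 genes with 163 probes among the 37074 gene names of the array. Kept were the probes that the scanner software marked as well above background on every array of either group. This left 126 probes of 72 of the genes, and 118 of these probes had that mark on each of the 6 arrays, compared with 34443 and 30940 probes over the whole array. The measured value is the quantile normalized log2 signal of a 60-base probe, and a fold change is the difference of group means on that scale, GSK-J4 minus vehicle. DIO mice had been fed a diet with 60 kcal% fat for 16 weeks from the age of 6 weeks. GSK-J4, an inhibitor of the Kdm6 demethylases that remove H3k27me3, was given at 30 mg kg−1 to 3 mice and vehicle (0 mg kg−1) to 3 others, with 1 mouse on each array and tissue taken at ZT 6 h. The series places the tissue at 4 d after exposure, whereas the methods describe injections over 21 d. No genotype was changed in these mice, and both groups were obese, so that no lean group enters any comparison.

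Ubiquitin is attached to a protein by a chain of enzymes that ends with a ligase, and the SCF complex is the best known ligase of the cullin family. Cul1 forms its scaffold, Rbx1 brings in the conjugating enzyme that carries ubiquitin, and Skp1a joins the scaffold to an exchangeable F-box protein, which binds the substrate and so sets what is degraded. F-box proteins are named by the part that binds the substrate, leucine-rich repeats in FBXL, WD repeats in FBXW and other domains in FBXO, and in the hypothalamus they are best known for the timed degradation of clock proteins, such as that of the Per proteins by Btrc and Fbxw11.

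Some properties of the arrays touch every value below. All vehicle arrays were on 1 slide and in 1 scan and all GSK-J4 arrays on another, and the effects of slide and treatment cannot be told apart. The GSK-J4 arrays were dimmer, with a 75th percentile of the signal of 406 to 461 against 787 to 916, and 120 to 123 of the 163 member probes were well above background on them, compared with 127 to 128 on the vehicle arrays. Of 15 transcripts that mark the hypothalamus, 9 were kept (2 higher and 0 lower), whereas Avp, Pmch and Trh reached this level on at most 2 arrays of a group and Nkx2-1, Otp and Sim1 on none. All 6 markers of cortex and hippocampus were kept (1 higher, 1 lower), with Neurod6 at a mean log2 signal of 12.39 in vehicle. Transcripts of cortex and hippocampus were thus detected beside only part of the hypothalamic ones. Those not kept had 1 or 2 probes each, so an absent transcript and a poor probe cannot be told apart. The summed log2 level of the cortical markers was 14.796 to 14.879 in vehicle and 14.655 to 14.736 in GSK-J4. That of the kept hypothalamic markers was 15.29 to 15.50 and 15.49 to 15.52, and it was mostly the signal of Sst. The mean log2 signal of Sst in vehicle was 15.24, with Npy next at 11.52, Pomc at 7.94 and Agrp, Hcrt and Ghrh at 4.74 to 4.86. These sums therefore do not compare hypothalamic with cortical tissue. Choroid plexus transcripts (7 of 8 kept, 0 called, Slc4a5 not kept) stood at 16.79 on the array of vehicle replicate 1, with 11.70 as the lowest vehicle value and 11.60 to 13.63 in GSK-J4. The 5 markers each of astrocytes, microglia, oligodendrocytes and thalamus were kept with 0 called by limma (4 higher and 1 lower of the 20 at an unadjusted p of at most 0.05). Of the microglial markers 4 summed to 12.54 to 12.72 in vehicle and 12.92 to 12.98 in GSK-J4, which do not overlap. This sum leaves out Csf1r, the brightest of them (mean 13.47 in vehicle), for a missing value in GSK-J4. Of 8 pituitary markers 1 was kept, Lhb. What these differences contribute to the values of the ligase genes was not tested. In whole tissue, fewer cells of a type and less RNA per cell cannot be told apart.

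Across the family, probes went both ways and about as often as on the whole array. Of the 126 kept member probes, 9 were higher and 11 lower in GSK-J4 at an adjusted p of at most 0.05, compared with 8.38% and 8.40% of all kept probes. All 20 were among the 118 probes well above background on every array, of which they made up 7.63% and 9.32%, against 9.10% and 7.85% of all probes so marked. Counted as genes by their brightest probe, 5 were higher (Fbxl8, Fbxo2, Fbxo46, Fbxw8 and Fbxw21) and 4 lower (Fbxl4, Fbxo11, Cul2 and the transcript Fbxl12os) of 72, where the array gave 9.00% and 7.77%. The median log2 fold change was −0.03 over the 118 member probes (55 above 0 and 63 below) and 0.05 over the array. The 3 GSK-J4 values lay wholly above the 3 vehicle values for 35 of the 118 probes and wholly below for 31, and these shares of the array were 26.7% and 20%. With the study's own thresholds (1.5-fold or more, p up to 0.05 without adjustment) applied to the limma fit, 2 member probes were higher and 11 lower, compared with 4.80% and 7.85%.

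The counts fell when an array was left out, for the members and for the whole array alike. Without vehicle replicate 1, 2 or 3 no member probe passed the adjusted test of limma, although 20, 19 and 20 probes were then higher and 21, 16 and 17 lower at an unadjusted p of at most 0.05, and in either direction 1 to 12 of all 34443 kept probes passed. Without GSK-J4 replicate 1, 3 were higher and 6 lower (2.82% and 4.13% of all kept probes). Without GSK-J4 replicate 2, 6 were higher and 9 lower (5.98% and 6%), and without GSK-J4 replicate 3, 5 were higher and 10 lower (4.45% and 7.2%). The fold changes themselves moved less, as for the called probe of Fbxl4, at −0.55 to −0.46 over the 6 omissions. Scaling to the 75th percentile in place of quantile normalization turned the split from 9 higher and 11 lower into 20 higher and 12 lower, with 14.6% and 10.6% of all kept probes called. That of genes went from 5 and 4 to 17 and 2 (18.8% and 8.99% of all genes). With it the called probes of Fbxl8, Fbxo11 and Fbxo33 and the weaker called probe of Fbxw11 no longer passed.

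**Figure D1:**
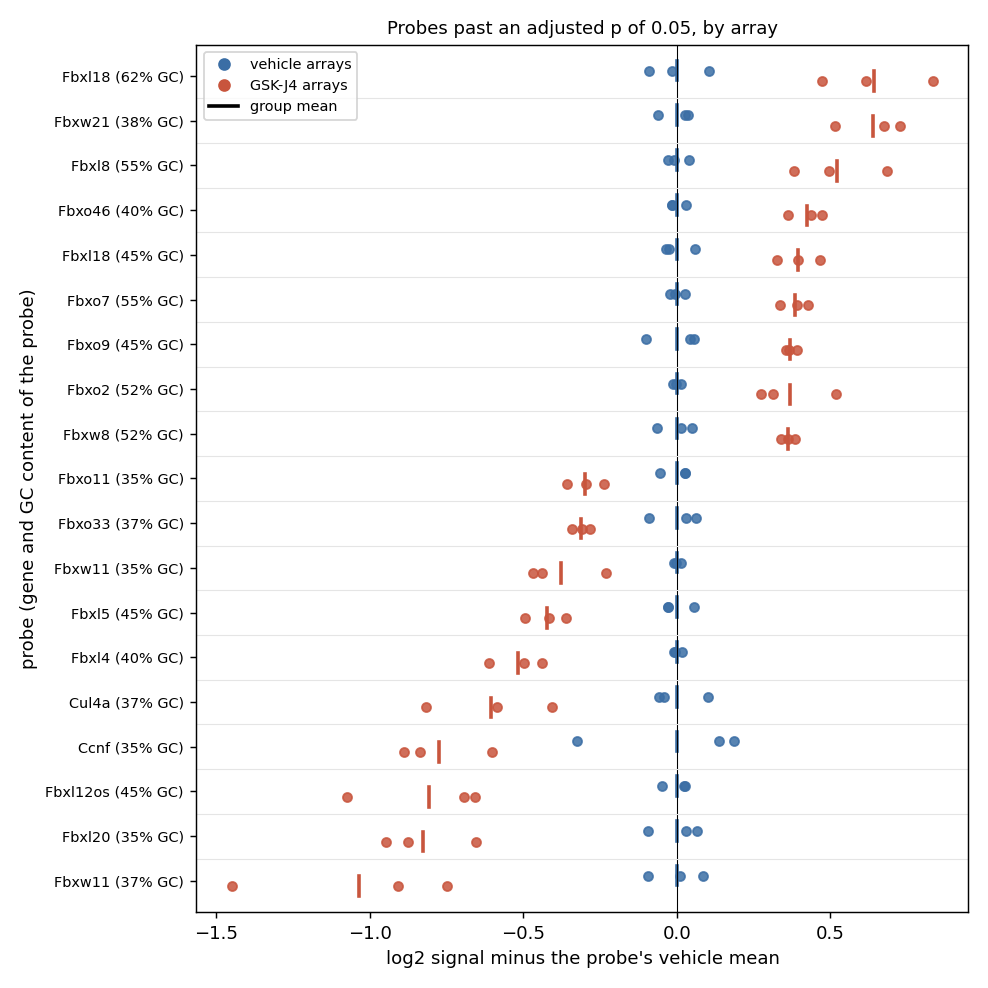
Log2 signal of 19 of the probes past an adjusted p of 0.05, drawn for each array (points) as the difference from the mean of the vehicle arrays of that probe, with group means as short bars and the GC content of each probe beside the gene. The groups of 3 arrays do not overlap for any of the 19 probes, and the changes run from −1.04 to 0.64.

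Among the FBXL genes with calls, Fbxl4, Fbxl5 and Fbxl20 were lower and Fbxl8 and Fbxl18 higher. Of 29 kept FBXL probes, 3 were higher and 4 lower, beside 8.38% and 8.40% of all kept probes of the array. Fbxl21, which binds the Cry clock proteins, gave 5.38, 5.26 and 5.59 against 5.38, 5.32 and 5.31, with groups that overlapped (−0.07, SE 0.10, adjusted p = 0.625). Skp2, which marks the cell cycle inhibitor Cdkn1b, gave 7.37, 7.19 and 7.26 against 7.28, 7.16 and 7.25 and likewise overlapped (−0.04, SE 0.08, adjusted p = 0.745).

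Fbxl4, a mitochondrial protein that restrains mitophagy, was lower on its brightest probe, with 9.97, 9.94 and 9.94 in vehicle and 9.34, 9.51 and 9.45 in GSK-J4 (−0.52, SE 0.08, adjusted p = 0.0185). Its other probe moved by −0.35 (SE 0.15, adjusted p = 0.153), with overlapping groups. Fbxl5, the iron sensor that controls the iron regulatory proteins, gave 10.53, 10.44 and 10.44 against 9.98, 10.11 and 10.05 on a probe that was not its brightest (−0.42, SE 0.07, adjusted p = 0.0239). The brightest moved by −0.21 (SE 0.08, adjusted p = 0.117). Fbxl20, known at the synapse for the degradation of a vesicle release protein, gave 6.20, 6.17 and 6.04 against 5.19, 5.49 and 5.26 (−0.83, SE 0.10, adjusted p = 0.0156) on a probe of a cDNA clone. The brightest probe of Fbxl20 ran the other way without passing, with 9.27, 9.31 and 9.31 against 9.49, 9.46 and 9.42 (0.16, SE 0.07, adjusted p = 0.145). The remaining probe was above background on the vehicle arrays alone, at 4.52, 4.18 and 5.01 against 4.43, 4.45 and 3.70, with overlapping groups (fitted limma adjusted p = 0.394). With its GSK-J4 values raised to at least the dimmest detected signal of their arrays, vehicle was 1.05-fold higher, without an error estimate.

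Fbxl8 was higher on its only kept probe, at 5.78, 5.76 and 5.82 in vehicle and 6.17, 6.47 and 6.28 in GSK-J4 (0.52, SE 0.10, adjusted p = 0.0269, and 0.39 with adjusted p = 0.0553 after scaling to the 75th percentile). Fbxl18 had 3 kept probes, and they are printed because their fold changes ran in the order of their GC content. The probe lowest in GC was designed on a cDNA clone and the others on the RefSeq transcript. Each line gives bases 1 to 30 of the 60, 5′ to 3′, with G and C in capitals.

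Fbxl18, 31.7% GC over 60 bases, chr5:143628634-143628693: tGGGtGtttCtatGtaaatCtGtaGCatGt

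Fbxl18, 45% GC, chr5:143633544-143633603: tGaaattCtCGaatGttGtCtGtGaGCCtG

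Fbxl18, 61.7% GC, chr5:143647954-143648013: GtCaCCtGattCaGCGGCtCatCaatGGCG

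The probe lowest in GC, which was also the brightest, gave 12.01, 12.44 and 11.97 against 12.39, 12.04 and 12.19 and overlapped (0.07, SE 0.16, adjusted p = 0.787). The middle probe gave 11.05, 10.97 and 10.96 against 11.46, 11.39 and 11.32 and was higher (0.40, SE 0.08, adjusted p = 0.0273). The probe highest in GC gave 4.85, 5.04 and 4.92 against 5.41, 5.77 and 5.55 and was higher too (0.64, SE 0.12, adjusted p = 0.026). No order of the levels of these probes can be read, since probes differ in brightness.

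Of the FBXW genes, Fbxw11 was lower on 2 of 4 probes and Fbxw8 and Fbxw21 were higher, out of 24 kept probes. The array shares were 8.38% higher and 8.40% lower. Fbxw11 and Btrc encode the β-TrCP proteins, which bind phosphorylated β-catenin, IκB and Per. The largest change among the called probes of the family was that of Fbxw11 at chr11:32614864-32614923 (mm9), a probe designed on a cDNA clone, with 8.79, 8.61 and 8.71 in vehicle and 7.25, 7.95 and 7.79 in GSK-J4 (−1.04, SE 0.19, adjusted p = 0.0263). The lowest value, of GSK-J4 replicate 1, lay apart from the other two, and the fold change was −0.82 without it. At the 3′ end of the gene, 2 probes designed on the RefSeq transcript lie next to each other, at chr11:32646490-32646549 and chr11:32646601-32646660, both with 35% GC. The second gave 14.17, 14.18 and 14.19 against 13.71, 13.95 and 13.74 (−0.38, SE 0.09, adjusted p = 0.0405, and −0.077 with adjusted p = 0.535 after scaling to the 75th percentile). The other, with 14.13, 14.18 and 14.10 against 13.67, 13.93 and 14.25, overlapped (−0.19, SE 0.15, adjusted p = 0.419). The remaining probe, which crosses a splice junction, gave 6.79, 6.74 and 6.63 against 7.10, 6.86 and 7.17, all GSK-J4 values above vehicle, and did not pass (0.32, SE 0.11, adjusted p = 0.0881). The probe that fell most and the probe across the junction are shown for comparison, again as bases 1 to 30 with G and C in capitals.

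Fbxw11, cDNA clone, 36.7% GC over 60 bases, chr11:32614864-32614923: CaCGCaCttaatGtaGGtttaataaGatGG

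Fbxw11, across a junction, 43.3% GC, chr11:32608206-32611786: GatCaaaatGaaGatGaGtCCCCaaaGaGa

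Btrc did not change by the test on either kept probe. The brighter gave 12.19, 12.28 and 12.31 against 12.20, 12.16 and 12.08 (−0.11, SE 0.08, adjusted p = 0.325), a difference that was 0.06 with scaling to the 75th percentile, and the other, across a junction, 8.54, 8.58 and 8.59 against 8.63, 8.69 and 8.69 (0.10, SE 0.07, adjusted p = 0.313). Fbxw7, which marks cyclin E, Myc and Notch, had 2 bright probes of 35% GC with overlapping groups, at −0.09 (SE 0.12, adjusted p = 0.61, and 0.16 with scaling to the 75th percentile) and 0.13 (SE 0.11, adjusted p = 0.427). Fbxw8, the partner of Cul7, had 3 probes with like differences. Its brightest gave 10.02, 10.10 and 10.14 against 10.45, 10.43 and 10.47 (0.36, SE 0.07, adjusted p = 0.0276, and 0.23 with adjusted p = 0.0565 after normexp background correction). The other 2, with groups that did not overlap either, gave 0.36 (SE 0.09, adjusted p = 0.0533) and 0.40 (SE 0.14, adjusted p = 0.102). Fbxw21 was higher on its only kept probe, at 4.54, 4.63 and 4.64 against 5.33, 5.12 and 5.28 (0.64, SE 0.09, adjusted p = 0.0165). With normexp background correction it did not pass (0.20, adjusted p = 0.0543). Fbxw21 belongs to a cluster of closely related genes on chromosome 9, of which Fbxw13, Fbxw14, Fbxw15, Fbxw16, Fbxw18, Fbxw19, Fbxw20, Fbxw22, Fbxw24, Fbxw25, Fbxw26 and Fbxw27 had no kept probe, and binding of its probe to transcripts of these relatives was not tested.

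Among FBXO genes, 4 probes were higher and 3 lower of 55 kept, beside 8.38% and 8.40% of all kept probes. Fbxo2, a neuronal F-box protein that binds sugar chains of misfolded glycoproteins, was higher, at 14.40, 14.43 and 14.41 in vehicle against 14.93, 14.69 and 14.73 in GSK-J4 (0.37, SE 0.09, adjusted p = 0.0437). Fbxo7, a gene of inherited parkinsonism, gave 10.28, 10.27 and 10.32 against 10.72, 10.63 and 10.68 (0.39, SE 0.07, adjusted p = 0.0241) on a probe of 55% GC. Its brightest probe, of 35% GC, moved by 0.23 (SE 0.08, adjusted p = 0.104) with groups that did not overlap, and its probe across a junction by 0.12 (SE 0.11, adjusted p = 0.433) with groups that did. Fbxo46 was higher on 1 of 2 probes by the test over probes, with 8.69, 8.65 and 8.65 against 9.14, 9.02 and 9.10 (0.42, SE 0.07, adjusted p = 0.0218). The brighter gave 0.36 (SE 0.09), at an adjusted p of 0.0505 over probes and 0.0473 over genes. Fbxo9, which acts on regulators of mTOR signalling, was higher on a probe across a junction, with 8.86, 9.00 and 9.01 against 9.35, 9.32 and 9.31 (0.37, SE 0.08, adjusted p = 0.0309). Its far brighter other probe gave 12.94, 12.96 and 12.94 against 12.93, 12.84 and 12.99 and overlapped (−0.03, SE 0.07, adjusted p = 0.816, and 0.18 with scaling to the 75th percentile).

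Fbxo11, which marks the repressor Bcl6, had probes of opposite sign. The brighter gave 12.66, 12.75 and 12.75 against 12.36, 12.42 and 12.48 and was lower (−0.30, SE 0.07, adjusted p = 0.0445, and −0.10 with adjusted p = 0.37 after scaling to the 75th percentile). The other gave 9.78, 9.89 and 10.01 against 10.36, 10.03 and 10.23 (0.31, SE 0.12, adjusted p = 0.113). Fbxo33 was lower on 1 of 2 probes, with 10.25, 10.21 and 10.09 against 9.87, 9.90 and 9.84 (−0.31, SE 0.07, adjusted p = 0.0435, which became 0.059 after scaling to the 75th percentile). Its brighter probe moved by −0.26 (SE 0.08, adjusted p = 0.0861). Ccnf, cyclin F, the F-box protein that limits ribonucleotide reductase, and Fbxo5, which inhibits the ligase of mitosis, were named for their part in the cell cycle. The single kept Fbxo5 probe gave 6.09, 6.17 and 6.36 against 6.43, 6.49 and 6.53 (0.28, SE 0.09, adjusted p = 0.0959), above vehicle on every array without passing. The 2 kept Ccnf probes differed, and are shown because the one that was lower was designed on a cDNA clone and the other on the RefSeq transcript.

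Ccnf, cDNA clone, 35% GC over 60 bases, chr17:24375413-24375472: CtGtGGatCttCaCCCCtttGaCaaaCCtC

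Ccnf, RefSeq transcript, 45% GC, chr17:24360275-24360334: aGtGGtttGtCtGtGtCCCattGtatCCat

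The clone probe of Ccnf gave 6.77, 6.31 and 6.82 in vehicle and 5.74, 5.80 and 6.03 in GSK-J4 (−0.78, SE 0.17, adjusted p = 0.0341). The RefSeq probe, the brighter, gave 10.12, 10.20 and 10.15 against 10.16, 10.25 and 10.31, with overlapping groups (0.09, SE 0.07, adjusted p = 0.439).

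The core of the ligase had 0 calls by limma among its 6 kept probes, with 1 higher and 1 lower at an unadjusted p of at most 0.05. Over the whole array, limma called 8.38% of kept probes higher and 8.40% lower. Skp1a, the adaptor, gave 14.42, 14.37 and 14.41 in vehicle and 14.23, 14.35 and 14.33 in GSK-J4 (−0.10, SE 0.07, adjusted p = 0.369, and 0.23 with scaling to the 75th percentile, where the adjusted p was 0.0556). Rbx1, the RING subunit, lay above vehicle on every GSK-J4 array for both probes, at 13.56, 13.44 and 13.34 against 13.60, 13.59 and 13.68 (0.18, SE 0.08, adjusted p = 0.183) and at 12.63, 12.52 and 12.51 against 12.74, 12.80 and 12.75 (0.21, SE 0.07, adjusted p = 0.0941). Both Rbx1 probes passed with scaling to the 75th percentile (0.45 and 0.41, adjusted p = 0.0167 and 0.0145). Cul1, the scaffold, gave 9.74, 9.92 and 9.88 against 9.58, 9.68 and 9.72 on its brightest probe (−0.19, SE 0.08, adjusted p = 0.163), and a second probe differed by 0.0046 (SE 0.11). The third Cul1 probe was well above background on the vehicle arrays alone, at 4.93, 4.47 and 4.87 against 3.34, 4.31 and 2.05 (fitted limma adjusted p = 0.11). With its GSK-J4 values raised to at least the dimmest detected signal of their arrays, vehicle was 1.19-fold higher, without an error estimate.

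The other cullins form ligases of the same plan with other adaptors. Beside 8.38% higher and 8.40% lower over the array, 0 of their 11 kept probes were higher and 1 lower. That probe was of Cul4a, which works with the adaptor Ddb1, with 7.45, 7.61 and 7.47 in vehicle and 6.92, 6.69 and 7.10 in GSK-J4 (−0.60, SE 0.12, adjusted p = 0.0313). The brightest Cul4a probe gave 11.34, 11.29 and 11.28 against 10.93, 11.11 and 11.16, all below vehicle (−0.24, SE 0.09, adjusted p = 0.109). Another Cul4a probe, above background in vehicle alone, gave 4.61, 4.36 and 4.56 against 3.95, 3.65 and 1.94 (fitted limma adjusted p = 0.13). With its GSK-J4 values raised to at least the dimmest detected signal of their arrays, vehicle was 1.003-fold higher, without an error estimate. Cul2, the scaffold of the Vhl ligase, gave 11.22, 11.19 and 11.32 against 10.93, 10.96 and 11.01 on its brightest probe (−0.27, SE 0.07), at an adjusted p of 0.0548 over probes and 0.0483 over genes. Its other probe overlapped (0.06, SE 0.09, adjusted p = 0.676). Cul4b, the X-linked relative of Cul4a, gave 10.93, 9.37 and 9.48 against 9.50, 9.28 and 9.50 (−0.50, SE 0.43, adjusted p = 0.435). The high value was of vehicle replicate 1, the array with the choroid plexus transcripts, and the difference without it was 0.0043.

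Cul3, the scaffold for BTB proteins, overlapped on its single probe, at 9.89, 10.10 and 10.25 against 9.85, 9.95 and 10.14 (−0.10, SE 0.13, adjusted p = 0.59). Cul5, the scaffold for SOCS box proteins, overlapped on its 3 probes, with differences of −0.35 (SE 0.22), −0.01 (SE 0.12) and −0.05 (SE 0.11). The first of these had 1 low value, 10.92 on GSK-J4 replicate 3, against 11.52 to 11.85 on the other 5 arrays. Cul7, which takes Fbxw8 as its F-box protein, lay above vehicle on every GSK-J4 array, with 11.10, 10.89 and 11.14 against 11.51, 11.25 and 11.45, and did not pass (0.36, SE 0.11, adjusted p = 0.0752, which became 0.0286 with scaling to the 75th percentile).

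**Figure D2:**
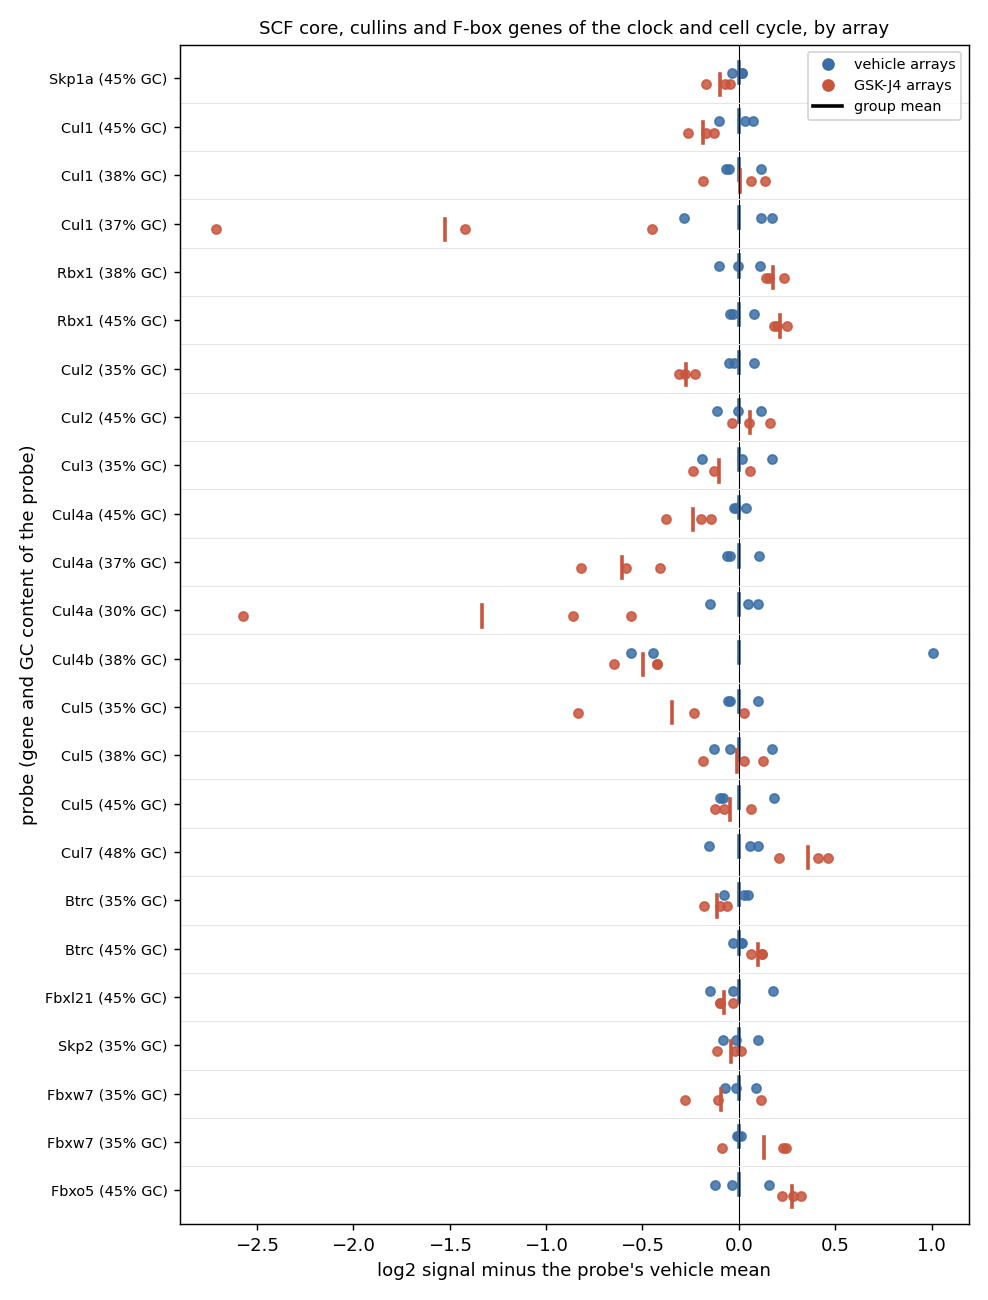
Log2 signal of the kept probes of the SCF core, the other cullins, Btrc, Fbxl21, Skp2, Fbxw7 and Fbxo5 on each array, as the difference from the vehicle mean of the probe, with group means as short bars. The groups lie apart for the called probe of Cul4a (−0.60) and for several uncalled probes, such as those of Rbx1, Skp1a, Cul7 and Fbxo5. The Cul4b value of 10.93 on vehicle replicate 1 stands alone on the right. The Cul1 and Cul4a probes with the widest spread in GSK-J4 are those measured above background in vehicle only.

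A transcript taken in by its name is not an F-box gene. Fbxl12os is transcribed from the strand opposite to Fbxl12, and its probe at chr9:20420874-20420932 (mm9, plus strand) gave 12.69, 12.76 and 12.77 in vehicle and 11.66, 12.05 and 12.08 in GSK-J4 (−0.81, SE 0.13, adjusted p = 0.0211). The probe of Fbxl12 itself, on the minus strand of the same region and named here after its values were seen, gave 11.71, 11.37 and 11.44 against 11.07, 11.03 and 9.95, all below vehicle and with 1 value far below the others (−0.83, SE 0.32, adjusted p = 0.125).

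The remaining 40 genes with a kept probe had 65 kept probes, 26 of the genes FBXO, 8 FBXL and 6 FBXW. Their log2 fold changes ran from −0.80 to 0.37 with a median of −0.03, their adjusted p-values were 0.0553 or more, and 8 were higher and 7 lower at an unadjusted p of at most 0.05. Besides the relatives of Fbxw21 on chromosome 9, the genes with no kept probe were Fbxl13, Fbxl22, Fbxo24, Fbxo40, Fbxo43 and Fbxo48, which makes 18 in all.

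Where a gene had several probes, the call mostly rested on 1 of them, in the family as on the whole array. Of the 38 member genes with several kept probes, 14 had a call, and in 12 of these it was 1 probe alone. In 0 of the 14 was every kept probe called the same way, and in 0 were probes called in both directions. On the whole array, 2556 of 7909 genes with several kept probes had a call, which was of 1 probe in 78.8% of them and of every probe in the same direction in 6.49%. Of the 20 called probes of the family, 4 were alone in their gene, 3 were the brightest of several, and 13 were not the brightest of their gene.

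**Figure D3:**
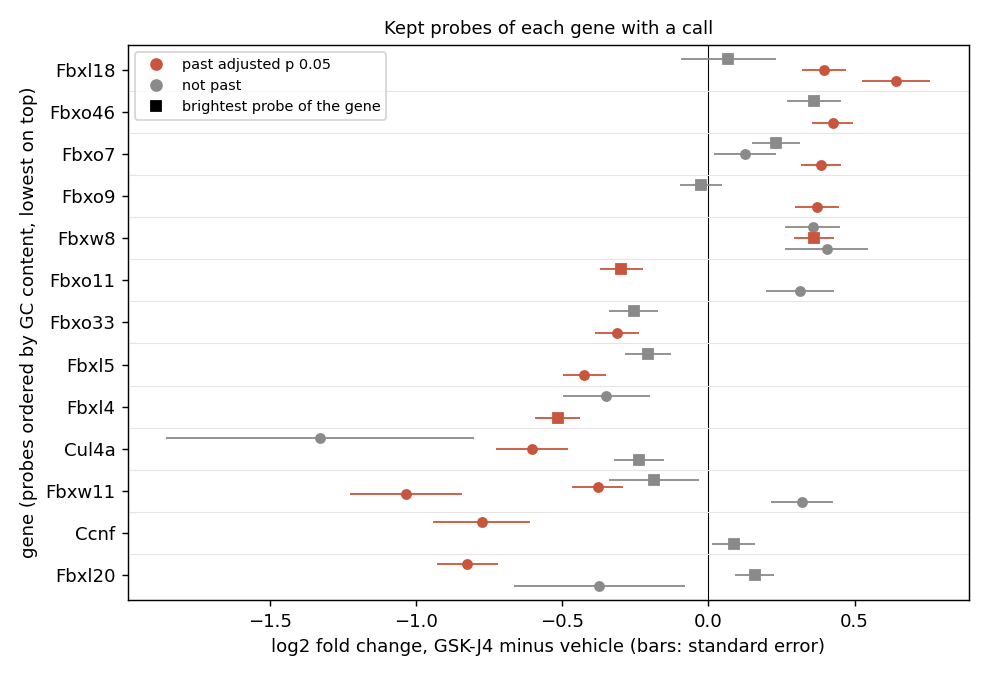
Log2 fold change of every kept probe, with its standard error as a bar, for 13 genes with several kept probes and at least 1 call, the probes of a gene ordered by GC content with the lowest on top. Fbxw8, Fbxo46, Fbxo33, Fbxl5 and Fbxl4 have their probes close together, while Fbxl20, Ccnf, Fbxw11, Fbxo9 and Fbxo11 combine a called probe with others near 0 or of opposite sign.

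The changes of the family went in part with the base composition of the probes. Across the 118 member probes well above background on all arrays, GC content and log2 fold change correlated with r = 0.516 (Spearman rho = 0.492), and across the 30940 such probes of the array with r = 0.337 (rho = 0.373). These are correlations across probes of the same 6 arrays, which are not independent replicates. Of 21 member probes above 45% GC, 5 were called higher and 0 lower, with a median of 0.29, whereas of 54 probes with at most 38.3% GC, 1 was higher (Fbxw21) and 8 lower, with a median of −0.11. The 43 probes between gave 3 and 3. Over the array the same classes held 21.5% higher and 1.49% lower, and 2.50% higher and 13.1% lower. Within genes, where the probes nearest the 5′ and the 3′ end differed in GC content, the lower fold change was on the probe of lower GC in 21 of 30 member genes (70%) and in 3754 of 6057 genes of the array (62%).

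When the trend of the signal on GC content was taken out of each array by lowess, 4 member probes were higher and 6 lower (4.51% and 5.82% of all kept probes), of which 9 were among the 20 called without it. Among them were the probes of Fbxo46, Fbxw21 and the 45% GC probe of Fbxl18, higher, and of Fbxl4, Fbxl5, Fbxl20, the clone probe of Fbxw11 and Fbxl12os, lower. The clone probe of Fbxw11 then stood at −0.96 (adjusted p = 0.037). The calls of Fbxl8, Fbxo2, Fbxo7, Fbxo9, Fbxo11, Fbxo33, Fbxw8, Ccnf, Cul4a, the 61.7% GC probe of Fbxl18 and the second Fbxw11 probe were lost, at adjusted p-values of 0.0514 to 0.201, with the direction kept in each. The sizes that remained differed. Cul4a went from −0.60 to −0.53, Fbxo9 from 0.37 to 0.33 and Ccnf from −0.78 to −0.63, whereas Fbxo7 went from 0.39 to 0.18 and Fbxo11 from −0.30 to −0.15.

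**Figure D4:**
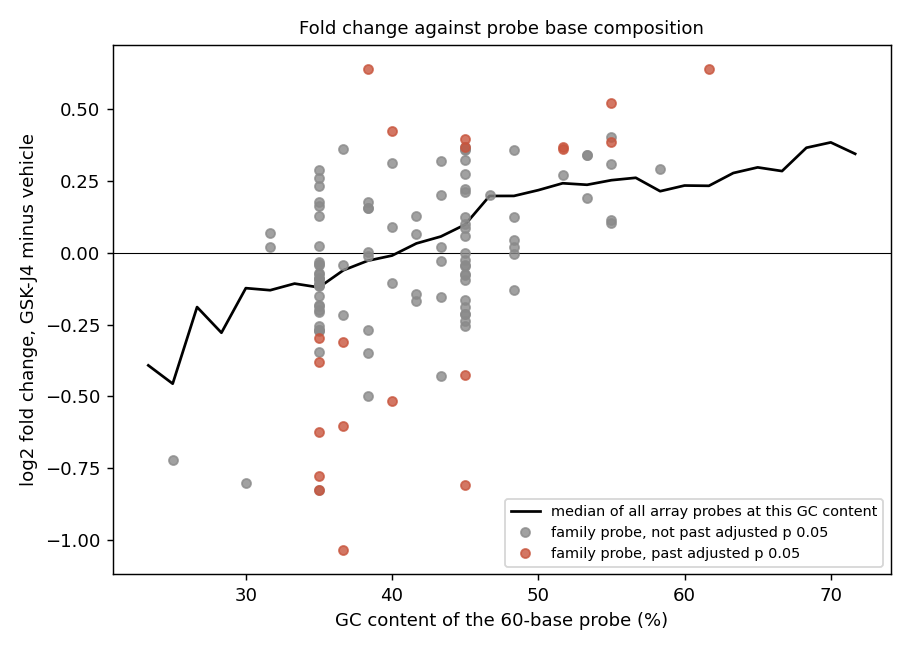
Log2 fold change against the GC content of the 60-base probe for the 118 family probes well above background on all 6 arrays (points, called probes in red), with the median of all array probes at each GC content as a line. The line rises from below 0 at low GC to above 0.2 at high GC, and all 5 called probes above 45% GC lie above it, while 8 of the 9 called probes at 38.3% GC or less lie below it.

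The share of lower calls also differed by the kind of transcript record behind a probe. Of the 118 probes, 105 were designed on RefSeq transcripts, with 9 higher and 8 lower and a median of −0.01. Another 7 were designed on GenBank cDNA records, with 0 higher and 3 lower (Fbxl20, Fbxw11 and Ccnf) and a median of −0.43, and 6 on Ensembl transcripts, with 0 called either way. The uncalled GenBank probes ran from −0.43 to 0.36, most of them above 0. Median GC content of the member probes was 35% for GenBank, 42.5% for Ensembl and 41.7% for RefSeq. Record and GC content were not tested apart. On the array 22.4% of the 2834 GenBank probes and 16.6% of the 3340 Ensembl probes were lower, compared with 4.55% of the 22643 RefSeq probes, at a median GC content of 40%, 43.3% and 43.3%. Differences by position along the gene were small. In 18 of 36 member genes the probe nearest the 5′ end had the lower fold change of the outermost pair, compared with 45.9% of 7083 genes of the array. The median log2 fold change at the 5′ and the 3′ end was 0.01 and −0.08 in member genes, and 0.06 and 0.01 over the array. Median GC content differed as well, at 43.3% and 38.3% in member genes and 45% and 40% over the array. Exons and untranslated regions of the probes were not analysed here, beyond the 11 kept member probes whose mm9 span is longer than the probe and which therefore cross a splice junction.

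Genes of the enzymes around the ligase and of its substrates were called in both directions, beside 9.00% higher and 7.77% lower of all genes. One list held 24 kept genes around Nedd8, the modifier that activates cullins, and the COP9 signalosome, and it included Cand1, Cand2 and Glmn. Of these 24, Ube2m, the Nedd8-conjugating enzyme (0.58, limma adjusted p = 0.0183 over genes), and Cops7b of the COP9 signalosome (0.40, adjusted p = 0.0328) were higher. The subunits of the Nedd8-activating enzyme Nae1 (−0.37, adjusted p = 0.0205) and Uba3 (−0.28, adjusted p = 0.0411) were lower. At an unadjusted p of at most 0.05, 3 of the 24 were higher and 8 lower. Of 13 kept genes of ubiquitin and its activating and conjugating enzymes, Uba1, the main activating enzyme, was higher (0.61, adjusted p = 0.0419) and 0 were lower by limma, with 2 higher and 1 lower at an unadjusted p of at most 0.05. Of 14 adaptors of the other cullins 0 were called by limma (1 higher and 1 lower at an unadjusted p of at most 0.05). Of 23 kept genes that encode known SCF substrates, the clock repressor Cry1 (0.61, adjusted p = 0.0152) and the ribonucleotide reductase subunit Rrm2 (0.32, adjusted p = 0.0455), the latter a substrate of Ccnf, were higher, and β-catenin, Ctnnb1 (−0.48, adjusted p = 0.0187), and the clock repressors Per2 (−0.33, adjusted p = 0.0379) and Per3 (−0.37, adjusted p = 0.039) were lower, with 4 and 4 at an unadjusted p of at most 0.05. These 10 calls came with probes of high GC for Ube2m, Cops7b and Cry1 (51.7% to 60%), of 35% for Ctnnb1, Per2, Uba3 and Rrm2, of 41.7% for Nae1 and Uba1 and of 56.7% for Per3. The direction of Cry1 is opposite to that in the paper, which reports Cry1 as lower with GSK-J4 in its array data and by real-time PCR. The Cry1 probe used here was dim, at a mean of 5.85 in vehicle and 6.46 in GSK-J4. The lower quartile over array probes well above background on all 6 arrays was 6.91. The reason for the difference was not tested. The medians of the 4 lists were −0.09, 0.07, 0.11 and 0.06 in the order given, beside 0.04 over all 22117 genes. Transcript levels say nothing of the amounts of the proteins that these ligases degrade.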

How the data were processed

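The authors hybridized Cy3-labelled hypothalamic RNA to Agilent SurePrint G3 mouse arrays and deposited the background-corrected signal intensity of each spot from Agilent Feature Extraction 10.7.1.1, and a table of log2 values quantile normalized in GeneSpring. Control spots and spots with outlier flags were left out. Log2 intensities were averaged over the spots of a probe and quantile normalized over the 6 arrays. Groups (3 against 3, from the sample titles) were compared with limma 3.58.1 in R 4.3.3 (lmFit and eBayes, two-sided, no covariate), with Benjamini-Hochberg adjustment over all 34443 kept probes or over 22117 genes by their brightest probe. An exact permutation test of 3 against 3 has a smallest p of 0.1. For a probe well above background on no array of 1 group, that group's values were raised to at least the dimmest detected signal of each array. The fold given is from the difference of means after this step and has no error estimate. Coordinates of probes are as deposited (mm9), and all 90 gene names were among RefSeq names or synonyms (GRCm38.p6). Genes named are the SCF core, the cullins, F-box genes of the clock and cell cycle, and every gene with a probe past an adjusted p of 0.05, except for 1 item that is not reported here but stays in the counts. Members and lists were chosen with earlier results of these data known. The number of arrays limits the precision. Alternatives were other scalings, background correction, filters, variance models and tests, GC correction, the replicate number as a block, and leaving out each array.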

Additional observations from a re-analysis of the deposited data

How the results depend on the processing

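With 9 probes higher and 11 lower and 5 genes higher and 4 lower as reported, the deposited log2 table, array weights, a variance trend with or without robust fitting, the t-test with equal variances, and probes well above background on all 6 arrays kept each count within 1.5 times. Scaling to the 75th percentile gave 20 probes and 17 genes higher and 2 genes lower (14.6%, 18.8% and 8.99% over the whole array). Normexp gave 3 genes higher (9.19% of all genes), and no filter on dim probes 3 genes higher (3.24%). GC correction gave 4 probes higher and 6 lower, and 2 genes lower (4.51%, 5.82% and 5.16% over the array). The thresholds of the methods gave 2 probes and 1 gene higher and 2 genes lower (4.80%, 4.84% and 6.39%). The methods' t-test without equal variances called 0 after adjustment (23 probes higher and 20 lower at an unadjusted p of at most 0.05). Of all 34443 kept probes it called 34 higher and 25 lower. Leaving out an array gave 0 to 6 probes higher, 0 to 10 lower, 0 to 4 genes higher and 0 to 2 lower. Over the whole array these shares were 0.0029% to 5.98%, 0.0232% to 7.2%, 0.00904% to 6.22% and 0.0859% to 5.66%. With the replicate number as a block limma called 0 members and 0 over the whole array, also with GC correction. Unadjusted, 19 member probes were higher and 20 lower, and 13 and 16 with GC correction. The sample titles do not say whether the numbers pair the mice. Deviations of same-numbered arrays correlated at 0.0074, 0.026 and 0.082, and 4 of 6 arrays correlated best with their own number. With 3 arrays in a group these values cannot settle whether the arrays are paired. The causes were not tested.

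None of the 20 called probes changed sign under scaling, normexp, the deposited table, GC correction, the block or leaving out an array. Of the 40 named probes that were not called, some did. With scaling these were Btrc at 0.058, Cul1 at −0.027, Cul5 at 0.039, Fbxo9 at 0.18, Fbxw11 at 0.11, Fbxw7 at 0.16 and Skp1a at 0.23. With normexp they were 2 Cul5 probes at 0.032 and 0.020 and Skp2 at 0.00011. With GC correction they were Btrc at 0.031, Cul3 at 0.041, Cul5 at 0.048, Fbxo7 at −0.0081, Fbxw7 at 0.054 and Skp2 at 0.10. Leaving out an array moved Cul1 from −0.060 to 0.10, Cul4b from −0.78 to 0.0043, Cul5 from −0.10 to 0.045 and from −0.077 to 0.077, Fbxl18 from −0.023 to 0.22, Fbxl21 from −0.15 to 0.013, Fbxo9 from −0.059 to 0.015, Fbxw7 from −0.19 to 0.0020 and Skp2 from −0.082 to 0.0083. Well above background on the vehicle arrays alone were 4 member probes. Their fitted log2 fold changes, from −1.53 to 0.26, rest on GSK-J4 signals that were not well above background.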
